A study of Mus musculus with 12 samples.

Results

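Erythroblasts mature in contact with macrophages, and 37 mouse genes of these macrophages and of the spleen's other resident macrophages were followed in RNA from sorted spleen cells. The 37 are a list of genes known for these cells, chosen with earlier results of these data already at hand. Their counts beside all genes are therefore not independent of the data. Of them, 3 act in adhesion, 24 act in engulfment and 10 mark macrophage identity. All 37 had exactly 1 probe set (a group of probes on the array read as 1 value) annotated to their symbol alone, among 19938 genes measured in that way. RNA came from cells of 3-month-old mice that carried the erythroid surface protein Ter119 together with a high level of CD71, the transferrin receptor. The 4 groups of 3 biological replicates were labelled DKO (Rb;E2f8, both genes knocked out), E2f8 KO, Rb KO and WT, with 12 arrays in all. Rb is a pocket protein that restrains the cell cycle through E2F factors, and E2f8 is an atypical E2F that represses transcription. No label names the Cre driver, the strain, the alleles or any pooling of animals.

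In an erythroblastic island a central macrophage holds a ring of maturing erythroblasts. It binds them through Vcam1 and alpha V integrin, hands on iron, and engulfs the nuclei they expel. Engulfment runs from bridging proteins that coat the target, through receptors of the TAM, Tim and scavenger families, to lysosomal nucleases and proteases. In the spleen, red pulp macrophages also clear old red cells and depend on the transcription factor Spi-C, and resident macrophages as a class depend on the receptor for colony stimulating factor 1.

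Signals are given on a log2 scale, so a difference of 1 is a change of 2-fold. Array medians lay between 6.22 and 6.35. The 12 genes of an erythroid list averaged 12.14 to 12.96 on the 12 arrays. On some arrays the sorted population was not free of other cells' RNA, since B cell and granulocyte markers averaged up to 12.01 and 10.20. These lists and one of T and NK cell markers are described further on. The probe sets of the 2 targeted genes were read first. E2f8 had log2 signals of 13.13, 13.17 and 13.09 for DKO, 12.89, 12.81 and 12.74 for E2f8 KO, 12.36, 12.52 and 11.68 for Rb KO, and 12.28, 11.70 and 11.88 for WT, which is higher with the E2f8 KO label than without it. Rb1 had log2 signals of 12.23, 11.98 and 12.17 for DKO, 11.74, 11.68 and 11.72 for E2f8 KO, 12.53, 12.33 and 12.39 for Rb KO, and 13.02, 12.74 and 12.71 for WT, lowest in E2f8 KO. Where these probe sets lie relative to the deleted parts is not known here, so neither signal checks a label, and DKO, E2f8 KO, Rb KO and WT below mean arrays labelled so. Xist, the RNA that silences an X chromosome, was low on DKO array 3 (3.99) and E2f8 KO array 3 (5.22) and between 11.30 and 12.18 on the other 10. Eif2s3y, a gene of the Y chromosome, read 7.82 and 8.17 on these 2 arrays and 2.79 to 3.32 on the other 10. The signals of these sex-linked genes were thus mixed in DKO and E2f8 KO and alike on all Rb KO and WT arrays. The part of sex in the results was not tested.

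Of the 37 genes, 35 passed a filter that left out the lowest 40% of probe sets by mean over the 12 arrays, a level of 5.84. The bridging protein Pros1 (mean 5.19) and the haemoglobin scavenger receptor Cd163 (mean 5.47) did not. The monocyte receptor Ccr2 (5.92) and the endotoxin co-receptor Cd14 (5.99) lay just inside it. Cd14 passed only through WT, since its mean over the 9 other arrays was 5.83, just below the filter, so its difference from WT was favoured by the filter. Without Cd14, the genes called lower against WT come to 28 of 34 in DKO and 23 of 34 in E2f8 KO. Each comparison was read from 1 limma model over 12980 genes, with an adjusted p under 0.05 needed for a call.

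The comparison of DKO with WT asked how the macrophage genes stood when both labels were present. In DKO 29 of the 35 tested genes fell and 0 rose, against 17.6% of all genes called lower, 20.6% called higher and 38.2% called in either direction. Csf1r, Adgre1 and Vcam1 were lower by the greatest factors, 12.4, 10.1 and 7.97. The median log2 difference over the 35 genes was -1.97, while that over all genes tested was 0.00044. By class, 3 of 3 adhesion genes, 17 of 22 engulfment genes and 9 of 10 identity genes fell. The 6 genes that were not called were Gas6, Stab2, Fcgr1, Dnase2a, Lyz2 and Ccr2. The 3 DKO arrays lay below the 3 WT arrays in 29 of the 35 genes, an arrangement found for 21.4% of all genes. These were the 29 called genes, and since a call favours such a separation, it adds nothing independent to the calls. Fewer macrophages among the sorted cells and less RNA of these genes per macrophage cannot be told apart in such samples. B cell, T cell and dendritic cell markers were also lower in DKO and granulocyte markers higher, and their part in the result was not tested.

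**Figure D1:**
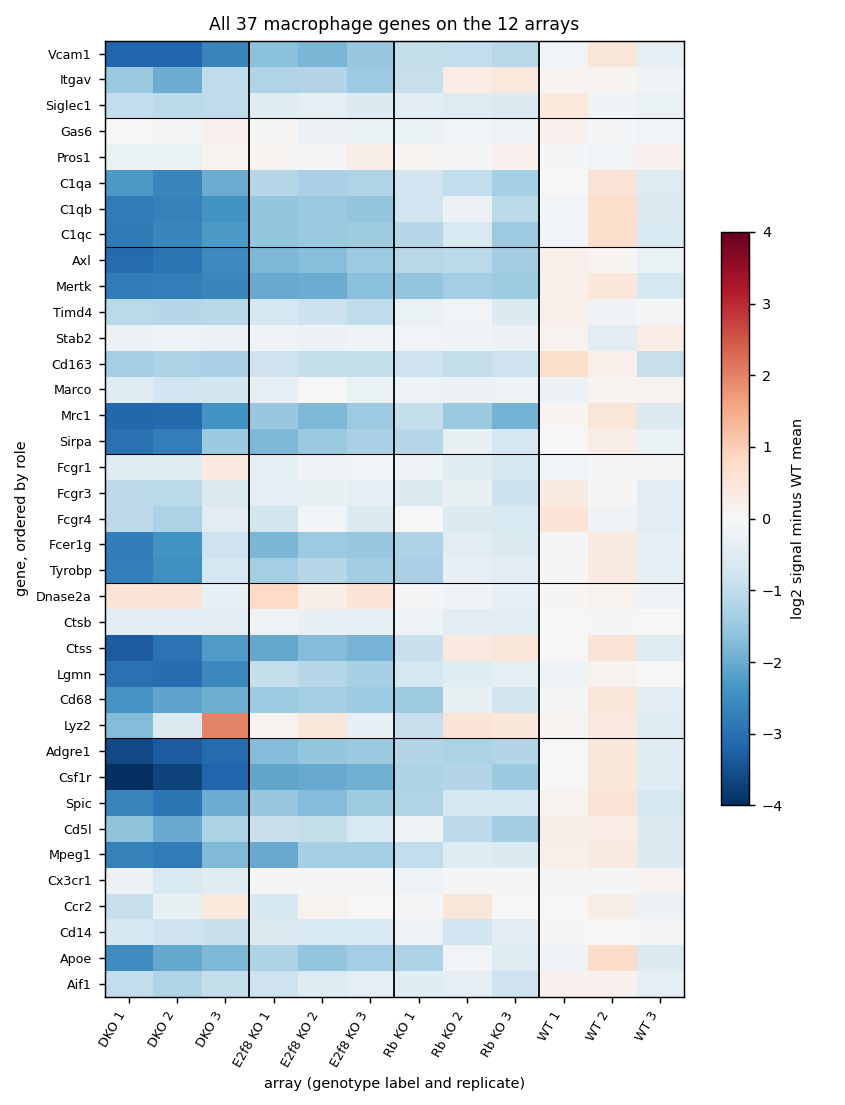
Log2 signal of each of the 37 genes (rows, in order of role, lines between roles) on each of the 12 arrays (columns), minus the mean of the 3 WT arrays, from blue (lower) to red (higher). The DKO columns are the darkest blue, with Csf1r and Adgre1, in the lowest block, the darkest of them, while Gas6, Pros1, Stab2, Cx3cr1 and Dnase2a stay pale, and DKO array 3 is red for Lyz2.

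Among the adhesion genes, Vcam1 showed the clearest steps between the 4 groups. Vcam1, the macrophage ligand of alpha 4 beta 1 integrin on erythroblasts, had log2 signals of 8.32, 8.31 and 8.83 for DKO, 9.85, 9.65 and 9.98 for E2f8 KO, 10.53, 10.49 and 10.36 for Rb KO, and 11.38, 11.96 and 11.11 for WT. No 2 groups overlapped, and the DKO arrays were the lowest. The log2 difference of Vcam1 in DKO from WT was -3.00 ± 0.22 (SE, adjusted p = 3.04e-06). Itgav, the alpha V integrin chain that binds Icam4 on erythroblasts, had log2 signals of 6.41, 5.91 and 6.89 for DKO, 6.69, 6.73 and 6.43 for E2f8 KO, 6.97, 8.20 and 8.32 for Rb KO, and 7.96, 7.99 and 7.73 for WT. DKO and E2f8 KO overlapped in Itgav and lay below WT, whereas 2 of the 3 Rb KO arrays were above every WT array and Rb KO 1 was below all of them. Itgav differed in DKO from WT by -1.49 ± 0.32 log2 units (adjusted p = 0.00265). Siglec1, the sialoadhesin that binds sialic acid on neighbouring cells, had log2 signals of 6.27, 6.16 and 6.22 for DKO, 6.76, 6.84 and 6.69 for E2f8 KO, 6.83, 6.71 and 6.66 for Rb KO, and 7.66, 7.08 and 6.98 for WT. The 3 DKO values of Siglec1 were the 3 lowest and the 3 WT values the 3 highest, with E2f8 KO and Rb KO mixed between them. Its log2 difference in DKO from WT was -1.02 ± 0.16 (adjusted p = 4.52e-04).

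Of the bridging proteins, the 3 chains of C1q fell together in DKO and Gas6 was not called. C1q binds apoptotic cells and immune complexes and starts the classical complement pathway. C1qa had log2 signals of 7.19, 6.88 and 7.51 for DKO, 8.34, 8.17 and 8.28 for E2f8 KO, 8.71, 8.50 and 8.14 for Rb KO, and 9.47, 10.01 and 8.97 for WT, and its log2 difference in DKO from WT was -2.29 ± 0.25 (adjusted p = 4.28e-05). C1qb had log2 signals of 8.68, 8.78 and 9.08 for DKO, 9.94, 10.00 and 9.89 for E2f8 KO, 10.69, 11.25 and 10.39 for Rb KO, and 11.38, 12.17 and 10.89 for WT, with a difference of -2.63 ± 0.29 (adjusted p = 3.91e-05). For C1qc, log2 signals were 8.04, 8.26 and 8.58 for DKO, 9.32, 9.39 and 9.45 for E2f8 KO, 9.75, 10.26 and 9.44 for Rb KO, and 10.78, 11.59 and 10.27 for WT, and the difference was -2.59 ± 0.30 (adjusted p = 5.33e-05). In all 3 genes every DKO array lay below every E2f8 KO array, and the Rb KO arrays spread more widely than the E2f8 KO arrays. Gas6, which links phosphatidylserine on a dying cell to the TAM receptors, had log2 signals of 6.40, 6.30 and 6.55 for DKO, 6.44, 6.14 and 6.11 for E2f8 KO, 6.11, 6.27 and 6.17 for Rb KO, and 6.56, 6.30 and 6.27 for WT, and its DKO and WT arrays overlapped (log2 difference 0.05 ± 0.13, adjusted p = 0.828). Pros1, the other TAM ligand, was below the filter, with log2 signals of 4.91 to 5.33 in DKO, 5.13 to 5.43 in E2f8 KO, 5.11 to 5.35 in Rb KO and 5.08 to 5.34 in WT.

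The promoters of C1qb and C1qc, on mouse chromosome 4, are shown because these chains moved together. They run from 250 bases before the gene start to 50 after it, 5′ to 3′ on the minus strand (RefSeq, GRCm38.p6, chr4:136886151-136886450 and chr4:136892865-136893164). Capitals mark the letters GAGGAA on either strand, the core bound by PU.1, the factor that directs macrophage genes.
C1qb: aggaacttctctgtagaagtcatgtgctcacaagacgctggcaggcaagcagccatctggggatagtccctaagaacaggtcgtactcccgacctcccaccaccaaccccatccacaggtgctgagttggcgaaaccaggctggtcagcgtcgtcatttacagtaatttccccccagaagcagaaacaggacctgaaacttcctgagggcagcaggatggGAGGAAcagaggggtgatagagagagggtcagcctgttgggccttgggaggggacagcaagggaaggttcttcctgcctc
C1qc: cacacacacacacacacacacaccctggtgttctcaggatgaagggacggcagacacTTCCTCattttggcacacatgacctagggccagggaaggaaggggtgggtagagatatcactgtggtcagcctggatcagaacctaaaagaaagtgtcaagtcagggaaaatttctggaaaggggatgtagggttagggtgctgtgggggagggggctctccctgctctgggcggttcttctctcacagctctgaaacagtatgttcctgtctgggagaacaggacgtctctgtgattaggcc
Each of the 2 windows holds 1 match. Of the 37 genes, 28 had a RefSeq promoter entry, and 14 of these 28 (50%) held GAGGAA on at least 1 strand, against 28.3% of 27025 promoters of the same length. The 14 were Aif1, Apoe, Axl, C1qb, C1qc, Cd5l, Cd68, Ctss, Fcgr1, Fcgr3, Fcgr4, Itgav, Marco and Mrc1, of which Fcgr1 was not called in DKO. The letters TTTCCCGC, TTTGGCGC, TTTCGCGC and TTTGCCGC, forms of the E2F motif that share no overlap with GAGGAA, were found on either strand in 0 of the 28 member promoters and in 2.32% of all promoters. A match describes the letters of a window and does not show that a factor binds there.

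Receptors of the engulfment class fell widely in DKO, with the TAM kinases and the mannose receptor lowest relative to WT. Axl, a TAM kinase that Gas6 activates, had log2 signals of 7.91, 8.07 and 8.43 for DKO, 9.18, 9.28 and 9.54 for E2f8 KO, 9.88, 9.89 and 9.59 for Rb KO, and 11.18, 11.04 and 10.72 for WT, and the 4 groups did not overlap. Its log2 difference in DKO from WT was -2.84 ± 0.19 (adjusted p = 1.92e-06). Mertk, the TAM kinase through which island macrophages take up expelled nuclei, had log2 signals of 6.01, 6.06 and 6.21 for DKO, 6.78, 6.82 and 7.13 for E2f8 KO, 7.22, 7.44 and 7.39 for Rb KO, and 9.02, 9.27 and 8.14 for WT. No 2 groups of Mertk overlapped either, and the WT arrays spread over more than 1 unit while the DKO arrays lay close together (log2 difference -2.72 ± 0.24, adjusted p = 8.79e-06). Mrc1, the mannose receptor, had log2 signals of 6.36, 6.38 and 7.09 for DKO, 7.96, 7.69 and 8.02 for E2f8 KO, 8.53, 7.99 and 7.58 for Rb KO, and 9.58, 9.97 and 8.92 for WT, so that DKO was lowest, WT highest, and E2f8 KO and Rb KO overlapped. It differed by -2.87 ± 0.30 log2 units in DKO from WT (adjusted p = 2.96e-05). Sirpa, the receptor for the signal Cd47 that spares healthy red cells, had log2 signals of 7.37, 7.61 and 8.85 for DKO, 8.56, 8.87 and 9.04 for E2f8 KO, 9.19, 10.05 and 9.67 for Rb KO, and 10.36, 10.60 and 10.08 for WT, with DKO array 3 more than 1 unit above the other DKO arrays (log2 difference -2.40 ± 0.34, adjusted p = 1.98e-04). Timd4, a phosphatidylserine receptor, had log2 signals of 6.42, 6.34 and 6.40 for DKO, 6.79, 6.63 and 6.49 for E2f8 KO, 7.23, 7.40 and 6.95 for Rb KO, and 7.70, 7.34 and 7.43 for WT. The 3 DKO arrays of Timd4 lay close together and below all others (log2 difference -1.10 ± 0.15, adjusted p = 1.78e-04).

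Promoters of Axl, Mertk and Mrc1 follow in the same form, since these receptors had the largest differences of their role (RefSeq, GRCm38.p6). Axl lies at chr7:25788684-25788983 on the minus strand, Mertk at chr2:128698665-128698964 on the plus strand and Mrc1 at chr2:14229164-14229463 on the plus strand, and capitals again mark GAGGAA or its reverse complement.
Axl: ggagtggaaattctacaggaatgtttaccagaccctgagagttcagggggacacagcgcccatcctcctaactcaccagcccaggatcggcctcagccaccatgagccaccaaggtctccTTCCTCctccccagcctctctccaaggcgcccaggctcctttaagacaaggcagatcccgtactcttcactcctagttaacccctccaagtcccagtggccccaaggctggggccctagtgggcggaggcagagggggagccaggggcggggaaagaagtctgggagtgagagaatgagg
Mertk: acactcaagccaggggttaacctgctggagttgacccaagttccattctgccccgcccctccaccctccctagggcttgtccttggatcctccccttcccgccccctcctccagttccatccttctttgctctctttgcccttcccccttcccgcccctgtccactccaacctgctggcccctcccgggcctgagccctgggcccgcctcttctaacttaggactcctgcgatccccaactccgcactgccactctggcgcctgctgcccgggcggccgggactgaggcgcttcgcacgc
Mrc1: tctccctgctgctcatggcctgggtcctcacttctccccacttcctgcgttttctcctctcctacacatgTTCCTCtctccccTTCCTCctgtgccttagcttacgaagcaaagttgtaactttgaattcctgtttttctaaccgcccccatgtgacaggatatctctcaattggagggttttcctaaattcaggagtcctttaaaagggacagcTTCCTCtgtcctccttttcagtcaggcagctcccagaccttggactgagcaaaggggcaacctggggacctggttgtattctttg
There was 1 match in the Axl window, 0 in that of Mertk and 3 in that of Mrc1. Any relation of these matches to the differences was not tested. Marco, a scavenger receptor of the splenic marginal zone, differed less, by -0.67 ± 0.13 log2 units in DKO from WT (adjusted p = 0.00164). Stab2, a scavenger receptor best known from sinusoidal endothelium, was not called in DKO (log2 difference -0.21 ± 0.17, adjusted p = 0.353). Its WT arrays read 6.95, 6.36 and 7.09, wider than all 9 other arrays together, and the log2 difference was -0.43 without WT 2 (adjusted p = 0.0310). Cd163 was below the filter, with log2 signals of 4.89, 4.96 and 4.96 for DKO, 5.43, 5.29 and 5.30 for E2f8 KO, 5.41, 5.28 and 5.40 for Rb KO, and 6.95, 6.44 and 5.33 for WT. WT arrays 1 and 2 of Cd163 stood at least 1 unit above every other array, and WT array 3 was within the range of the knockout labels. With no filter, Cd163 differed by -1.30 ± 0.28 log2 units in DKO from WT (adjusted p = 0.00303) and by -0.91 ± 0.28 in E2f8 KO from WT (adjusted p = 0.0382).

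Fc receptors and their adaptors fell in DKO in 4 of 5 cases, and the DKO arrays disagreed over both adaptors. Fcer1g, the common gamma chain that activating Fc receptors signal through, had log2 signals of 8.27, 8.63 and 10.21 for DKO, 9.21, 9.56 and 9.51 for E2f8 KO, 9.78, 10.61 and 10.48 for Rb KO, and 10.99, 11.37 and 10.70 for WT. Tyrobp, the adaptor DAP12 of many myeloid receptors, had log2 signals of 7.59, 7.90 and 9.63 for DKO, 8.995, 9.21 and 8.94 for E2f8 KO, 9.06, 10.01 and 9.93 for Rb KO, and 10.38, 10.69 and 9.96 for WT. On DKO array 3 both adaptors read within the range of the Rb KO arrays, whereas DKO arrays 1 and 2 were the lowest of the 12. Their log2 differences in DKO from WT were -1.99 ± 0.40 for Fcer1g (adjusted p = 0.00189) and -1.97 ± 0.43 for Tyrobp (adjusted p = 0.00317). Granulocytes also make Fcer1g and Tyrobp, and the mean log2 signal of 15 granulocyte genes was 6.79, 7.97 and 10.20 on DKO arrays 1 to 3. The part of that difference in the values of DKO array 3 was not tested. Fcgr3, a low affinity receptor for IgG, differed by -0.90 ± 0.21 log2 units in DKO from WT (adjusted p = 0.00489). Fcgr4, a receptor for IgG on myeloid cells, differed by -0.92 ± 0.28 (adjusted p = 0.0205). The call of Fcgr4 rested on single arrays, at -0.64 without WT 1 (adjusted p = 0.0898), -0.85 without DKO 1 (adjusted p = 0.0633) and -0.74 without DKO 2 (adjusted p = 0.0895). Fcgr1, the high affinity receptor for IgG, was not called (log2 difference -0.20 ± 0.22, adjusted p = 0.532). Its DKO signals were 6.14, 6.15 and 7.04, against 6.54, 6.70 and 6.70 in WT, and the log2 difference was -0.50 without DKO 3 (adjusted p = 0.0350).

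In the lysosome, the proteases of macrophages fell in DKO while Dnase2a and Lyz2 were not called. Lgmn, the asparaginyl endopeptidase legumain that matures cathepsins, had log2 signals of 8.71, 8.65 and 9.11 for DKO, 10.72, 10.56 and 10.35 for E2f8 KO, 10.98, 11.21 and 11.28 for Rb KO, and 11.50, 11.83 and 11.71 for WT. The 4 groups of Lgmn did not overlap, and its DKO arrays stood more than 1 unit below the nearest E2f8 KO array (log2 difference from WT -2.86 ± 0.17, adjusted p = 1.03e-06). Ctss, cathepsin S, which trims the invariant chain of class II molecules, had log2 signals of 6.93, 7.28 and 7.97 for DKO, 8.20, 8.50 and 8.39 for E2f8 KO, 9.37, 10.62 and 10.74 for Rb KO, and 10.24, 10.77 and 9.73 for WT. For Ctss, Rb KO and WT overlapped, and E2f8 KO and DKO lay below both (log2 difference in DKO from WT -2.85 ± 0.37, adjusted p = 1.14e-04). B cells make Ctss as well. The 14 genes of the B cell list averaged 9.80, 12.01 and 11.95 on Rb KO arrays 1 to 3. The part of B cells in the Ctss values was not tested. Cd68, the lysosomal membrane protein macrosialin, had log2 signals of 8.32, 8.59 and 8.76 for DKO, 9.23, 9.33 and 9.25 for E2f8 KO, 9.27, 10.39 and 9.97 for Rb KO, and 10.65, 11.19 and 10.25 for WT, and its DKO arrays were the 3 lowest (log2 difference -2.14 ± 0.28, adjusted p = 1.21e-04). Ctsb, cathepsin B, differed by a small but even amount in DKO from WT, -0.44 ± 0.08 log2 units (adjusted p = 0.00139). Dnase2a, the acid nuclease that digests the DNA of engulfed nuclei, had log2 signals of 11.34, 11.32 and 10.49 for DKO, 11.59, 11.07 and 11.31 for E2f8 KO, 10.76, 10.64 and 10.47 for Rb KO, and 10.84, 10.94 and 10.63 for WT. DKO arrays 1 and 2 of Dnase2a were above every WT array and DKO array 3 below every WT array, which left a log2 difference of 0.24 ± 0.22 (adjusted p = 0.430) and one of 0.52 without DKO 3 (adjusted p = 0.0442). Lyz2, lysozyme M, which granulocytes also make in quantity, had log2 signals of 8.55, 9.71 and 12.25 for DKO, 10.39, 10.73 and 9.95 for E2f8 KO, 9.35, 10.83 and 10.72 for Rb KO, and 10.40, 10.68 and 9.75 for WT. The DKO arrays of Lyz2 spanned more than 3 units and held both the lowest and the highest of the 12 values (log2 difference -0.11 ± 0.70, adjusted p = 0.928).

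Among the identity genes were the 2 with the largest differences of the 35, Csf1r and Adgre1. Csf1r, the receptor that macrophages need for survival, had log2 signals of 6.91, 7.20 and 7.73 for DKO, 8.82, 8.89 and 8.997 for E2f8 KO, 9.67, 9.72 and 9.42 for Rb KO, and 10.92, 11.37 and 10.43 for WT. Adgre1, which encodes F4/80, the standard surface marker of mouse macrophages, had log2 signals of 6.26, 6.54 and 6.79 for DKO, 8.14, 8.32 and 8.39 for E2f8 KO, 8.68, 8.59 and 8.69 for Rb KO, and 9.87, 10.33 and 9.40 for WT. For both genes the 4 groups kept apart, in the order DKO, E2f8 KO, Rb KO and WT. Their log2 differences in DKO from WT were -3.63 ± 0.25 for Csf1r (adjusted p = 2.19e-06) and -3.33 ± 0.22 for Adgre1 (adjusted p = 1.92e-06). Spic, which encodes Spi-C, had log2 signals of 5.96, 5.72 and 6.62 for DKO, 7.09, 6.87 and 7.19 for E2f8 KO, 7.41, 7.95 and 7.94 for Rb KO, and 8.76, 9.13 and 7.94 for WT. DKO was lowest for Spic and WT array 3 lay among the Rb KO arrays (log2 difference -2.51 ± 0.30, adjusted p = 6.03e-05). Mpeg1, the pore-forming perforin-2, had log2 signals of 6.89, 6.79 and 7.81 for DKO, 7.55, 8.24 and 8.20 for E2f8 KO, 8.59, 9.08 and 9.02 for Rb KO, and 9.77, 9.93 and 9.03 for WT, and its log2 difference in DKO from WT was -2.41 ± 0.31 (adjusted p = 1.14e-04). Apoe, the lipid carrier that loaded macrophages secrete, had log2 signals of 8.66, 9.12 and 9.35 for DKO, 9.91, 9.59 and 9.80 for E2f8 KO, 9.93, 11.05 and 10.63 for Rb KO, and 11.01, 11.89 and 10.56 for WT, with a difference of -2.11 ± 0.33 (adjusted p = 3.97e-04). Cd5l, a secreted protein that keeps macrophages alive, differed by -1.63 ± 0.31 log2 units in DKO from WT (adjusted p = 0.00125). Smaller differences were called for Aif1, the actin-binding protein Iba1 (-1.04 ± 0.18, adjusted p = 6.21e-04), and for Cd14 (-0.81 ± 0.13, adjusted p = 5.49e-04, and 7.68e-04 in limma with no filter).

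Of the receptors of circulating monocytes, Cx3cr1 was called and Ccr2 was not. Cx3cr1, the fractalkine receptor, had a log2 difference in DKO from WT of -0.44 ± 0.13 (adjusted p = 0.0192). Its call was lost at -0.39 without WT 3 (adjusted p = 0.0511), -0.35 without DKO 2 (adjusted p = 0.0830) and -0.43 without DKO 3 (adjusted p = 0.0571). Ccr2, through which monocytes leave the marrow, had log2 signals of 5.08, 5.68 and 6.40 for DKO, 5.35, 6.14 and 6.01 for E2f8 KO, 5.90, 6.47 and 5.99 for Rb KO, and 5.98, 6.23 and 5.76 for WT. The groups of Ccr2 overlapped (log2 difference -0.27 ± 0.29, adjusted p = 0.536). That difference rested on single arrays, at -0.61 without DKO 3 (adjusted p = 0.0975) and 0.06 without DKO 1 (adjusted p = 0.899).

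**Figure D2:**
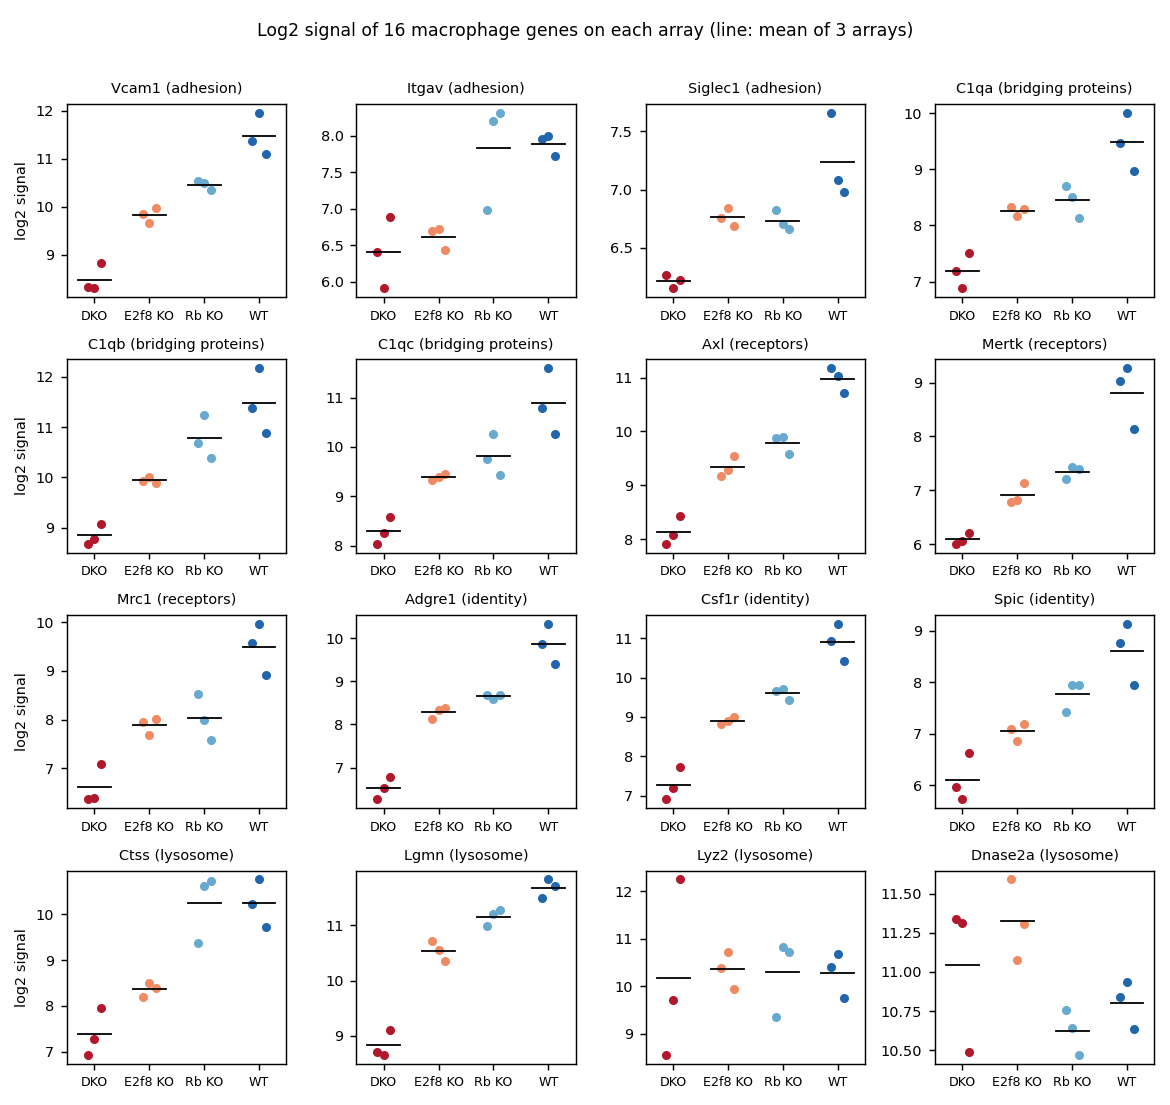
Log2 signal (y axes, which differ between panels and do not start at 0) of 16 of the genes on each array, 1 panel per gene, with DKO, E2f8 KO, Rb KO and WT side by side, 1 point per array and a line at the mean of 3. Csf1r, Adgre1, Axl, Mertk, Vcam1 and Lgmn climb in 4 separate steps, Ctss and Itgav reach WT level on Rb KO arrays 2 and 3, and Lyz2 and Dnase2a show the split of the DKO arrays.

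The comparison of E2f8 KO with WT asked the same of the E2f8 label alone. Here 24 of 35 genes fell and 0 rose, against 14.2% of all genes called lower, 11.9% called higher and 26.1% called in either direction. Those that fell were 3 of 3 adhesion genes, 14 of 22 engulfment genes and 7 of 10 identity genes. This comparison and that of DKO share the WT arrays. The median log2 difference was -1.22, while over all genes it was 0.060. Csf1r (-2.00 ± 0.25, adjusted p = 4.31e-04), Mertk (-1.90 ± 0.24, adjusted p = 4.45e-04) and Ctss (-1.88 ± 0.37, adjusted p = 0.00410) had the largest log2 differences. Vcam1 differed by -1.65 ± 0.22, Axl by -1.65 ± 0.19 and Adgre1 by -1.58 ± 0.22 log2 units, which are factors of 3.15, 3.13 and 3. All 3 C1q chains fell, by between 1.22 and 1.54 log2 units. Fcgr3, Fcgr4, Marco and Cx3cr1, called in DKO, were not called in E2f8 KO, nor was Cd5l, at log2 differences of -0.35, -0.47, -0.20, -0.07 and -0.81. Whether the 2 differences of a gene differed is given by the comparison of DKO with E2f8 KO.

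Some of these calls rested on single arrays. Siglec1 (log2 difference -0.48 ± 0.16, adjusted p = 0.0488) kept its call when WT 3 or Rb KO 1 was left out and lost it when any 1 of the 10 other arrays was, at adjusted p values of 0.0578 to 0.136. Tyrobp (-1.30 ± 0.43, adjusted p = 0.0422) was lost without WT 1, WT 2 or any 1 of the E2f8 KO arrays (adjusted p 0.0806 to 0.150). Ctsb (-0.29 ± 0.08, adjusted p = 0.0251) was lost without any 1 WT array and without E2f8 KO 2 or 3 (adjusted p 0.0575 to 0.0892). Aif1 (-0.58 ± 0.18, adjusted p = 0.0282) was lost without WT 1, WT 2, E2f8 KO 1 or E2f8 KO 2 (adjusted p 0.0606 to 0.125). Fcer1g was at -1.42 without WT 2 (adjusted p = 0.0600) and -1.49 without E2f8 KO 1 (adjusted p = 0.0513). Cd5l, which was not called (-0.81 ± 0.31, adjusted p = 0.0694), passed at -1.08 without WT 3 (adjusted p = 0.0286), -0.81 without Rb KO 1 (adjusted p = 0.0175) and -0.81 without Rb KO 3 (adjusted p = 0.0494). Dnase2a was above WT on all 3 E2f8 KO arrays, at 0.52 ± 0.22 log2 units (adjusted p = 0.0956), and was called higher at 0.52 without DKO 3 (adjusted p = 0.0339).

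The comparison of Rb KO with WT addressed the Rb label alone. None of the 35 genes was called in limma's test (0 lower and 0 higher), and only 1 gene of 12980, which is 0.00770%, was called at all. At an unadjusted p under 0.05, 19 of the 35 were lower and 0 higher, against 3.57% and 1.02% of all genes. The groups did not overlap, with Rb KO lower, in 16 of 35 genes, against 4.03% of all genes. The median log2 difference of the 35 was -0.58, and that of all genes was 0.037. Mertk (-1.46 ± 0.24, adjusted p = 0.0827), Axl (-1.19 ± 0.19, adjusted p = 0.0827), Adgre1 (-1.21 ± 0.22, adjusted p = 0.105) and Csf1r (-1.30 ± 0.25, adjusted p = 0.112) came nearest to the threshold. Mrc1 (-1.45 ± 0.30, adjusted p = 0.170) and Vcam1 (-1.02 ± 0.22, adjusted p = 0.186) came next, before C1qa (-1.04 ± 0.25, adjusted p = 0.278), Ctsb (-0.34 ± 0.08, adjusted p = 0.295) and C1qc (-1.07 ± 0.30, adjusted p = 0.394). C1qb was farther off (-0.70 ± 0.29, adjusted p = 0.937), and its Rb KO and WT arrays overlapped. Ctss at -0.00, Itgav at -0.06, Lyz2 at 0.02 and Ccr2 at 0.13 had small differences with wide errors. With 1 array left out they ran over -0.26 to 0.44 for Ctss, -0.31 to 0.37 for Itgav, -0.25 to 0.49 for Lyz2 and -0.05 to 0.25 for Ccr2, and the highest values of Ctss, Itgav and Lyz2 were those without Rb KO 1. The 95% interval of Ctss was wide, -0.80 to 0.80.

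The outcome for Rb KO turned on which array was left out. Without Rb KO 1, 7 of the 35 genes were called lower, against 96 of all 12980 genes. The 7 were Axl, Mertk, Mrc1, Ctsb, Adgre1, Csf1r and Cd5l. Without WT 3, 5 were, namely Axl, Mertk, Mrc1, Adgre1 and Csf1r, against 35 of all 12980 genes. Mertk was at -1.79 without WT 3 (adjusted p = 0.00264) and -1.40 without Rb KO 1 (adjusted p = 0.0322). Axl was at -1.32 without WT 3 (adjusted p = 0.0237) and -1.24 without Rb KO 1 (adjusted p = 0.0291), and Adgre1 at -1.45 without WT 3 (adjusted p = 0.0128) and -1.23 without Rb KO 1 (adjusted p = 0.0407). Csf1r was at -1.54 without WT 3 (adjusted p = 0.0272) and -1.33 without Rb KO 1 (adjusted p = 0.0425). Mrc1 was at -1.74 without WT 3 (adjusted p = 0.0434) and -1.70 without Rb KO 1 (adjusted p = 0.0306). Ctsb came to -0.42 without Rb KO 1 (adjusted p = 0.0322) and Cd5l to -1.22 without Rb KO 1 (adjusted p = 0.0469). With all 12 arrays, the B cell list had 0 of 14 genes called in Rb KO against WT and a median log2 difference of 0.17.

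**Figure D3:**
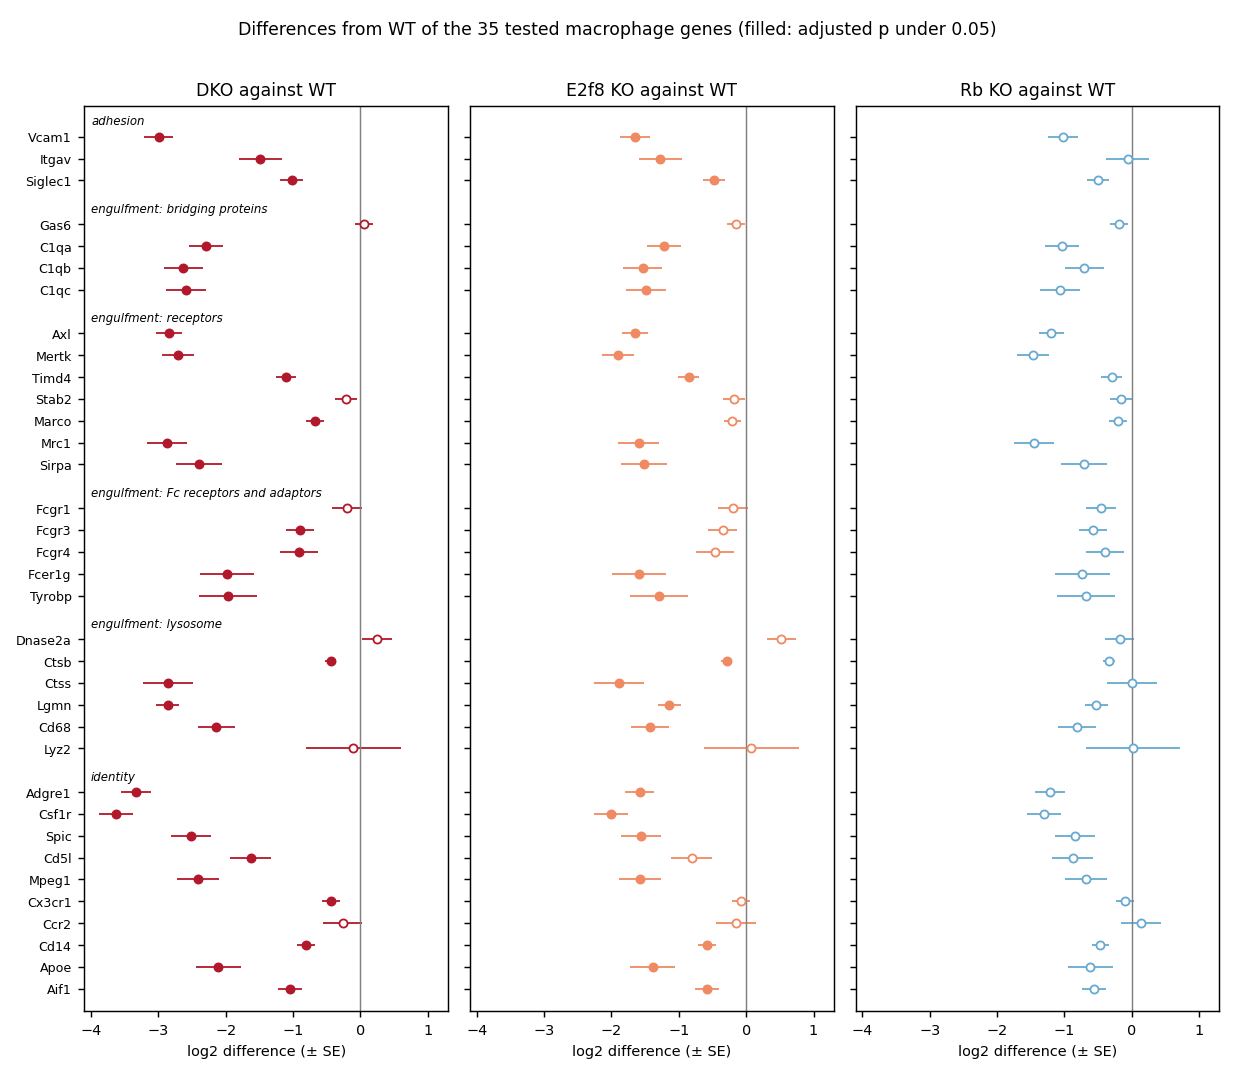
Log2 difference (x axis, with SE as a bar) from WT of each of the 35 tested genes (rows, by role) in DKO, E2f8 KO and Rb KO, with filled points for an adjusted p under 0.05. Csf1r lies at -3.63 in DKO, -2.00 in E2f8 KO and -1.30 in Rb KO. The filled points number 29 for DKO, 24 for E2f8 KO and 0 for Rb KO. All 3 panels use the same WT arrays.

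Over all 4 groups, the means of 24 of the 35 genes ran in the order DKO, E2f8 KO, Rb KO and WT, low to high, an order found for 8.92% of all genes tested. WT had the highest mean for 31 of 35 genes (16.8% of all genes) and DKO the lowest for 32 of 35 (33.3% of all genes). The genes outside this order were Siglec1, Gas6, Marco, Fcgr1, Fcgr3, Dnase2a, Ctsb, Lyz2, Cd5l, Cx3cr1 and Ccr2. A low DKO and a high WT are part of the order, so it is not independent of the calls in DKO against WT. Means of the T and NK cell list (5.96, 6.38, 8.05 and 8.27) and of the dendritic cell list (6.01, 6.29, 7.05 and 7.23) kept the same order. Those of the B cell, granulocyte, erythroid, endothelial and platelet lists did not. Neighbours in the order did not always differ, as the following comparisons show.

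DKO against Rb KO addressed the E2f8 label where the Rb label was present. In DKO 23 of 35 genes fell and 0 rose, against 17.6% of all genes called lower, 19.5% called higher and 37.1% called in either direction. The median log2 difference was -1.25, and -0.014 over all genes. The largest were Ctss (-2.85 ± 0.37, adjusted p = 1.80e-04), Lgmn (-2.33 ± 0.17, adjusted p = 6.88e-06) and Csf1r (-2.32 ± 0.25, adjusted p = 5.55e-05). All 3 adhesion genes, 14 of 22 engulfment genes and 6 of 10 identity genes fell. Aif1 (-0.48 ± 0.18, adjusted p = 0.0491) was called without WT 3, E2f8 KO 1 or Rb KO 3, and its adjusted p was 0.0513 to 0.175 without any 1 of the 9 other arrays. Siglec1 (-0.52 ± 0.16, adjusted p = 0.0256) was lost without any 1 Rb KO array, DKO 2 or DKO 3 (adjusted p 0.0526 to 0.0746). Marco (-0.46 ± 0.13, adjusted p = 0.0155) was lost without Rb KO 3, DKO 2 or DKO 3 (adjusted p 0.0529 to 0.0596). Tyrobp (-1.29 ± 0.43, adjusted p = 0.0318) and Fcer1g (-1.25 ± 0.40, adjusted p = 0.0262) were lost without Rb KO 2, Rb KO 3, DKO 1 or DKO 2, at adjusted p values of 0.101 to 0.136 and 0.0807 to 0.115. Their DKO and Rb KO arrays overlapped, and the log2 differences were -1.92 without DKO 3 (adjusted p = 9.06e-04) for Tyrobp and -1.84 without DKO 3 (adjusted p = 7.85e-04) for Fcer1g.

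Further genes passed the threshold when 1 array was left out of that comparison. Dnase2a was higher at 0.70 without DKO 3 (adjusted p = 0.0120), and Ccr2 lower at -0.74 without DKO 3 (adjusted p = 0.0484). Cd5l was at -1.02 without Rb KO 3 (adjusted p = 0.0322) and Cd14 at -0.49 without Rb KO 2 (adjusted p = 0.0132). Cx3cr1 was at -0.45 without DKO 1 (adjusted p = 0.0260) and -0.34 without WT 3 (adjusted p = 0.0481).

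DKO against E2f8 KO addressed the Rb label where the E2f8 label was present. In DKO 7 of 35 genes fell and 0 rose, against 0.647% of all genes called lower, 1.73% called higher and 2.37% called in either direction. The 7 were Adgre1 (-1.75 ± 0.22, adjusted p = 0.00140), Lgmn (-1.72 ± 0.17, adjusted p = 1.95e-04), Csf1r (-1.62 ± 0.25, adjusted p = 0.00555), Vcam1 (-1.34 ± 0.22, adjusted p = 0.00757), Mrc1 (-1.28 ± 0.30, adjusted p = 0.0462), Axl (-1.20 ± 0.19, adjusted p = 0.00723) and C1qa (-1.07 ± 0.25, adjusted p = 0.0480). The median log2 difference was -0.67, and -0.022 over all genes. The groups stood apart, with DKO lower, in 23 of 35 genes, against 17.0% of all genes. C1qb (-1.09 ± 0.29, adjusted p = 0.0690), C1qc (-1.09 ± 0.30, adjusted p = 0.0786) and Mertk (-0.82 ± 0.24, adjusted p = 0.0954) stood apart without being called. Of the B cell list 2 of 14 genes fell in DKO against E2f8 KO, with a median log2 difference of -1.11. Of the T and NK cell list 0 of 8 were called, with a median of -0.39. The part of these cells in the differences was not tested.

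C1qa was called without WT 2, WT 3, Rb KO 1 or Rb KO 3, and its adjusted p was 0.0608 to 0.209 without any 1 of the 8 other arrays. Mrc1 was lost without WT 1, Rb KO 2, DKO 1, DKO 2 or any 1 E2f8 KO array (adjusted p 0.0607 to 0.189). C1qb and C1qc were called without WT 2, WT 3 or Rb KO 1 (adjusted p 0.0314 to 0.0422 for C1qb and 0.0362 to 0.0472 for C1qc). Siglec1 passed at -0.55 without WT 1 (adjusted p = 0.0263), Marco at -0.47 without WT 1 (adjusted p = 0.0498), Mertk at -0.82 without WT 3 (adjusted p = 0.0156) and Sirpa at -1.33 without DKO 3 (adjusted p = 0.0430). Leaving out E2f8 KO 3 and DKO 3 together, the arrays with low Xist, kept 4 of the calls, those of Adgre1, Csf1r, Lgmn and Vcam1. In that setting 53 of all 12980 genes were called. Leaving out DKO 3 and Rb KO 1 gave 17 calls, against 527 among all 12980 genes.

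E2f8 KO was also set against Rb KO directly, as the single labels had given 24 and 0 calls against the same WT arrays. In E2f8 KO 7 genes were lower, against 15.6% of all genes, and 1 was higher, against 12.2% of all genes, with 27.7% called in either direction. The share of the 35 genes called lower was thus near that of all genes. Ctss had the largest log2 difference (-1.88 ± 0.37, adjusted p = 0.00398), followed by Itgav (-1.21 ± 0.32, adjusted p = 0.0139). Mpeg1 (-0.90 ± 0.31), C1qb (-0.84 ± 0.29), Vcam1 (-0.63 ± 0.22), Lgmn (-0.62 ± 0.17) and Timd4 (-0.56 ± 0.15) were the others called lower. Dnase2a was the gene called higher (0.70 ± 0.22, adjusted p = 0.0306). Ctss was called whichever 1 array was left out, while each of the 7 other calls was lost without at least 3 single arrays. In brackets after each array left out is the number called among all 12980 genes. Of the 35 genes, 12 were called without Rb KO 1 (5023) and 11 without WT 3 (3723) or DKO 3 (3553). The number was 5 without WT 1 (3590) or DKO 2 (3355) and 4 without E2f8 KO 1 (2036). It was 3 without E2f8 KO 2 (2283) or Rb KO 3 (1903), and 1 without E2f8 KO 3 (2510) or Rb KO 2 (1947). The call that was left without E2f8 KO 3, or without Rb KO 2, was that of Ctss. For Csf1r the log2 difference was -0.70 ± 0.25 (adjusted p = 0.0520, and 0.0325 to 0.0448 without WT 2, WT 3, DKO 1 or DKO 3), and for Mertk -0.43 ± 0.24 (95% interval -0.95 to 0.08, adjusted p = 0.196). Mrc1 (95% interval -0.80 to 0.50) and C1qa (-0.73 to 0.37) had intervals on both sides of 0. In the same comparison 13 of 14 B cell genes and 6 of 8 T and NK cell genes fell, while 6 of 15 granulocyte genes rose. The median log2 differences of these lists were -3.34, -1.84 and 1.54, against -0.37 for the 35 genes. The part of these cells in the values of Ctss, Itgav and the other genes was not tested.

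The interaction asked whether the difference of DKO from WT departed from the sum of the E2f8 KO and Rb KO differences. None of the 35 genes was called in limma's test (0 of 35), against 0.0770% of all genes, and at an unadjusted p under 0.05, 1 was below 0 (2.41% of all genes) and 0 above it (3.29% of all genes). The interaction was within 0.5 log2 units of 0 for 31 of the 35 genes. The 95% interval spanned 0 for 34 of them, reaching 0.26 to 2.15 log2 units to either side of the estimate, with a median of 0.76. Axl shows such a sum, with -2.84 in DKO against -2.84 for both single differences together. For Csf1r the difference in DKO was -3.63 and the sum -3.31, and for Mertk the difference was -2.72 and the sum -3.36. Lgmn was the gene with the unadjusted p under 0.05, at an interaction of -1.19 ± 0.24 log2 units (95% interval -1.71 to -0.67, adjusted p = 0.163). It fell by 2.86 in DKO, while the single differences summed to -1.67. Without Rb KO 1 the interaction of Lgmn was called, at -1.28 without Rb KO 1 (adjusted p = 0.0387).

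Other genes of the same pathways were followed in lists, some of whose genes are on 2 lists. Among all genes, 17.6% were called lower and 20.6% higher in DKO against WT. Of 24 other tested engulfment genes, 12 fell and 4 rose in DKO against WT, with a median log2 difference of -0.53. The 4 with the smallest p were Cd36 (-3.05 ± 0.23, adjusted p = 3.17e-06), Lrp1 (-1.76 ± 0.18, adjusted p = 2.86e-05), Nr1h3 (-1.90 ± 0.22, adjusted p = 6.03e-05) and Itgb5 (-1.76 ± 0.22, adjusted p = 8.32e-05). Cd36 is a scavenger receptor that erythroblasts also carry, Lrp1 takes up calreticulin-coated cells and haem bound to hemopexin, Nr1h3 is the sterol receptor LXR alpha, and Itgb5 is a partner chain of Itgav. Cd36 had log2 signals of 9.45, 9.36 and 8.74 for DKO, 12.09, 11.45 and 11.46 for E2f8 KO, 11.73, 11.14 and 11.24 for Rb KO, and 12.36, 12.11 and 12.23 for WT, so that DKO stood far below all 3 other groups. Of 17 other lysosomal genes, 15 fell and 0 rose, with a median of -1.37. Lipa, the acid lipase, had log2 signals of 7.02, 7.40 and 7.64 for DKO, 7.84, 7.89 and 7.67 for E2f8 KO, 9.72, 9.70 and 9.51 for Rb KO, and 10.15, 10.18 and 10.03 for WT, with DKO and E2f8 KO well below Rb KO and WT. Of 12 transcription factors of macrophages, 10 fell and 1 rose. Among those that fell were Id2 (-2.51 ± 0.31, adjusted p = 8.49e-05), Maf (-1.55 ± 0.19, adjusted p = 8.39e-05) and Pparg (-1.47 ± 0.18, adjusted p = 8.01e-05). In Rb KO against WT the median log2 difference was -0.16 for the lysosomal list and -0.19 for the transcription factors, against -0.58 for the 35 genes. The part of B cells, T cells and other cells in these lists was not tested.

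Of 13 tested genes of iron and haem recycling, 6 fell and 3 rose in DKO against WT, with a median log2 difference of -0.22, and the share that rose was near the 20.6% of all genes. The differences ran from -3.08 to 1.60, and the genes that rose are not among those named here, which were taken by smallest p. Treml4, a receptor of splenic macrophages and dendritic cells for dead cells, had log2 signals of 7.44, 7.77 and 8.17 for DKO, 8.98, 8.91 and 9.004 for E2f8 KO, 9.28, 10.26 and 9.55 for Rb KO, and 10.91, 11.50 and 10.20 for WT and fell by 3.08 log2 units (adjusted p = 2.86e-05). Slc48a1, the haem exporter of the phagolysosome (-0.72 ± 0.08, adjusted p = 4.81e-05), and Ncoa4, the ferritin receptor of autophagy (-0.93 ± 0.11, adjusted p = 5.20e-05), fell less, and erythroblasts use both as well. Of 6 relatives of the complement and Fc receptor genes 3 fell and 0 rose. Cfp, the complement factor properdin, fell by 3.05 log2 units (adjusted p = 5.73e-06).

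On the erythroblast side of the island, 10 genes were tested and 1 fell and 3 rose in DKO against WT, with a median log2 difference of 0.18. Against 17.6% of all genes called lower and 20.6% called higher, these counts do not set the list apart. Itga4, the integrin chain that binds Vcam1, had log2 signals of 9.90, 10.30 and 9.90 for DKO, 10.60, 10.46 and 10.61 for E2f8 KO, 11.17, 11.02 and 10.80 for Rb KO, and 11.14, 10.96 and 10.99 for WT and fell in DKO (-0.99 ± 0.16, adjusted p = 3.81e-04) and in E2f8 KO (-0.47 ± 0.16, adjusted p = 0.0405). B and T cells carry Itga4 too. Icam4, the erythroid ligand of alpha V integrin, had log2 signals of 10.01, 9.79 and 10.07 for DKO, 9.85, 9.76 and 9.69 for E2f8 KO, 9.38, 8.42 and 7.92 for Rb KO, and 9.13, 8.22 and 8.85 for WT and rose in DKO (1.22 ± 0.32, adjusted p = 0.00836) and in E2f8 KO (1.03 ± 0.32, adjusted p = 0.0298). Itgb1, the partner chain of Itga4 (0.70 ± 0.24, adjusted p = 0.0364), and Bsg, basigin (0.39 ± 0.11, adjusted p = 0.0154), rose in DKO. In Rb KO against WT, 0 of the genes on these 6 lists were called.

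Markers of other cells moved across the same groups. The mean log2 signal of the 35 macrophage genes was 7.25, 7.30 and 7.83 on the DKO arrays, 8.10, 8.17 and 8.17 on the E2f8 KO arrays, 8.40, 8.66 and 8.46 on the Rb KO arrays and 9.18, 9.36 and 8.81 on the WT arrays. In that mean Rb KO lay below WT on every array. The 14 B cell genes averaged 6.39, 6.82 and 7.55 on the DKO arrays, 7.85, 8.04 and 8.20 on the E2f8 KO arrays, 9.80, 12.01 and 11.95 on the Rb KO arrays and 10.91, 11.75 and 10.45 on the WT arrays. All 14 fell in DKO against WT, by a median of 4.54 log2 units, and 13 of 14 fell in E2f8 KO, while Rb KO arrays 2 and 3 were above every WT array. The 8 T and NK cell genes averaged 5.91 to 5.99 in DKO, 6.28 to 6.47 in E2f8 KO, 7.25 to 8.50 in Rb KO and 8.12 to 8.44 in WT, and 8 of 8 fell in DKO. Of 8 dendritic cell genes, 5 fell in DKO and 4 in E2f8 KO, and their mean was 5.81 to 6.12 in DKO, 6.26 to 6.34 in E2f8 KO, 6.73 to 7.22 in Rb KO and 7.10 to 7.46 in WT. The 15 granulocyte genes went the other way, at 6.79, 7.97 and 10.20 for DKO, 8.45, 8.55 and 8.09 for E2f8 KO, 6.85, 6.78 and 6.87 for Rb KO and 6.29, 6.43 and 6.38 for WT. In DKO 10 of 15 and in E2f8 KO 9 of 15 granulocyte genes rose. Endothelial genes (6 tested, 1 lower and 1 higher in DKO) and platelet genes (8 tested, 2 lower and 1 higher) showed no common direction. Of the 12 erythroid genes, 2 fell and 2 rose in DKO. Signal over background is not known for these values, so a low signal does not show whether a marker's RNA was present. The part of other cells in the macrophage results was not tested.

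**Figure D4:**
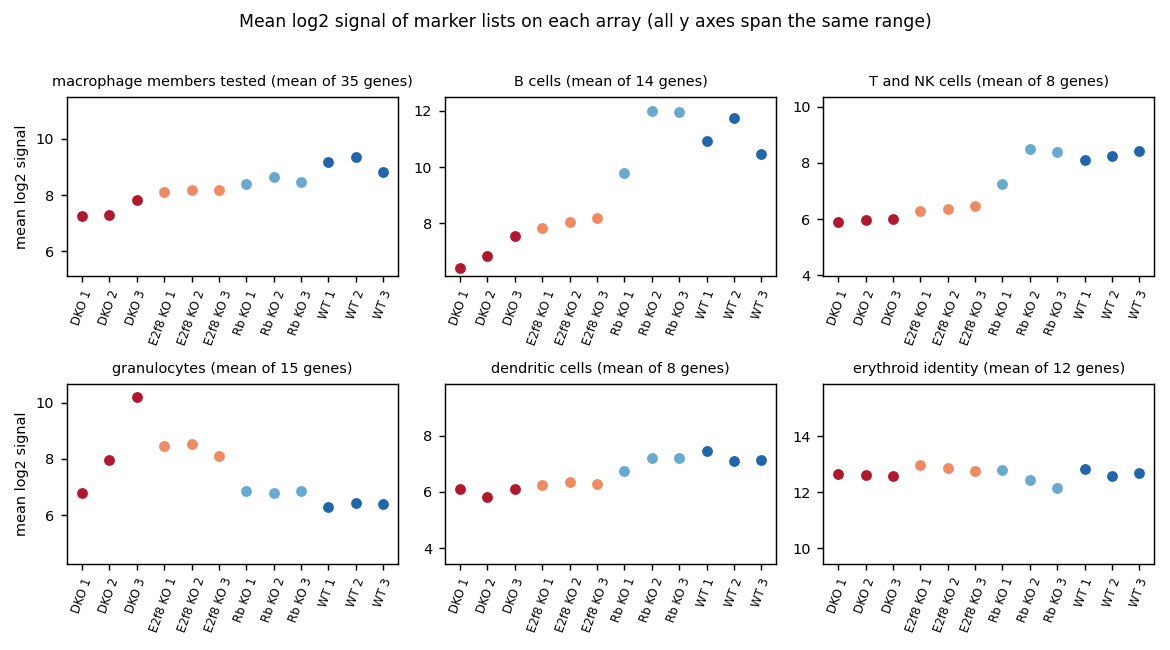
Mean log2 signal (y axes, all of the same span and not starting at 0) of 6 lists of genes on the 12 arrays (x axes). The macrophage mean steps up through DKO, E2f8 KO, Rb KO and WT, the B cell, T and NK cell and dendritic cell means reach WT level in Rb KO arrays 2 and 3, the granulocyte mean is highest on DKO array 3, and the erythroid mean lies between 12.14 and 12.96.

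Arrays of 1 group differed in ways that touch single genes. DKO array 3 was more than 0.5 log2 units above the mean of DKO arrays 1 and 2 for 16 of the 35 genes (7.90% of all genes) and that far below it for 1, Dnase2a. The largest such gaps were those of Lyz2 (3.12), Tyrobp (1.88), Fcer1g (1.75), Sirpa (1.36) and Ccr2 (1.02), and the granulocyte list showed 2.82. Timd4, Siglec1, Stab2, Ctsb and Cx3cr1 had gaps within 0.05 of 0. Rb KO array 1 was more than 0.5 below the mean of Rb KO arrays 2 and 3 for 9 of the 35 genes (17.3% of all genes), foremost Lyz2 (-1.42), Ctss (-1.31), Itgav (-1.28), Cd68 (-0.91), Tyrobp (-0.91) and Apoe (-0.91). The B cell list showed -2.17 on the same array, and Cd5l (1.02), Mrc1 (0.74) and Fcgr4 (0.63) went the other way. WT array 3 was more than 0.5 below the mean of WT arrays 1 and 2 for 19 of the 35 genes (15.1% of all genes) and as far above it for 0. The alternative without DKO 3 and Rb KO 1 was added after the data were seen. It called 30 of the 35 genes lower in DKO against WT, against 2477 of all 12980 genes. In E2f8 KO against WT it called 25 lower (2474 of all genes) and in Rb KO against WT 10 (133 of all genes). Dnase2a was called higher in DKO and in E2f8 KO, where 2583 and 1980 of all genes were.

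**Figure D5:**
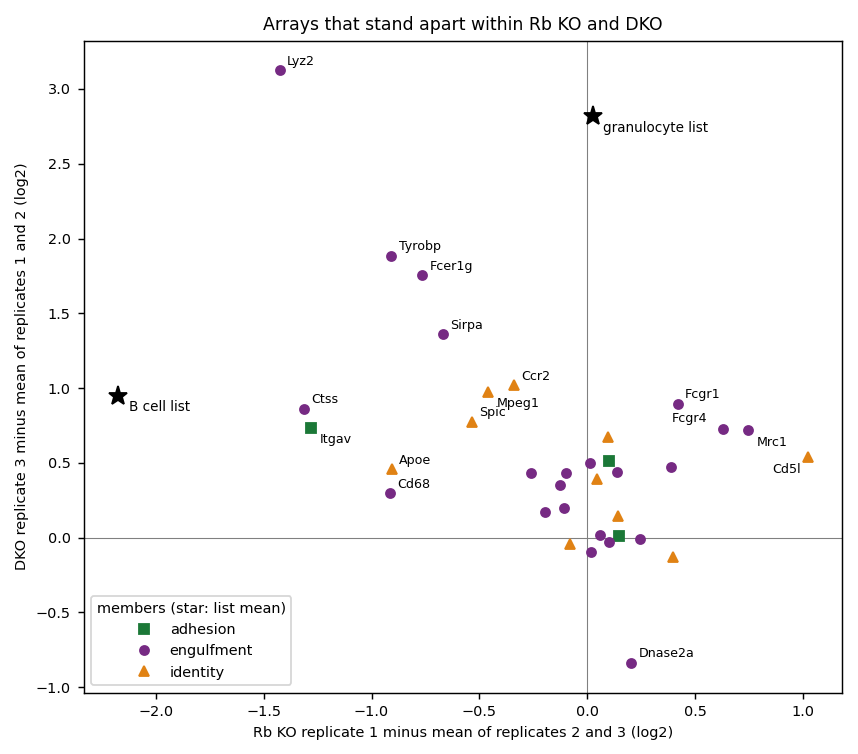
For each of the 35 tested genes (points, by class), the log2 signal of Rb KO array 1 minus the mean of the other Rb KO arrays (x axis) and of DKO array 3 minus the mean of the other DKO arrays (y axis), with the means of the B cell and granulocyte lists as stars. Lyz2, Tyrobp, Fcer1g and Sirpa lie at the upper left, low on Rb KO array 1 and high on DKO array 3, and Dnase2a lies lowest.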

How the data were processed

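Per the labels, total RNA from sorted spleen cells was hybridised to 12 single-channel Affymetrix arrays, 3 for each of 4 genotype labels. The deposited log2 values, 1 per probe set and array, were made by the authors with MAS5, per the submitters' processing notes. No version, background correction or normalization between arrays is given in the sources used here, and the log2 scale was inferred from the range of 1.07 to 14.84. The probe set identifiers are of a gene-level Affymetrix design. MAS5 is not normally run on such arrays, which leaves it uncertain how the values were made. They were used as deposited.

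Of 35557 probe sets, 21789 had 1 gene symbol, 1621 several and 12147 none listed, and those with several or none were left out. Symbols were updated by gene number for 21698. The dimmest 40% of probe sets, by mean over the arrays, were removed and 1 probe set per gene, that of highest mean, was used, which left 12980 genes. A model with 1 mean per label was fitted to all 12 arrays with limma 3.58.1 in R 4.3.3 (8 residual degrees of freedom; eBayes with trend), with Benjamini-Hochberg adjustment over all genes in each of 7 comparisons, two-sided. The fit was tested on simulated data. All 37 listed genes are named, and of each other list at most the 4 genes with the smallest p in DKO against WT. The genes and lists were chosen with earlier results of these data known. Errors are SE for differences. The labels call the arrays biological replicates, and their number limits the precision. Neither scan dates nor batches are named. Alternatives changed 1 choice at a time. Promoters were matched by symbol.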

Additional observations from a re-analysis of the deposited data

How the results depend on the processing

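No gene of the 35 changed the sign of a called difference under any alternative. Calls held under every alternative for 23 of 29 genes in DKO against WT, 15 of 24 in E2f8 KO against WT, 17 of 23 in DKO against Rb KO, 4 of 7 in DKO against E2f8 KO and 1 of 8 in E2f8 KO against Rb KO. With 1 array left out, the genes called were 27 to 30 in DKO against WT, 19 to 25 in E2f8 KO against WT, 0 to 7 in Rb KO against WT, 18 to 24 in DKO against Rb KO, 5 to 10 in DKO against E2f8 KO, 1 to 12 in E2f8 KO against Rb KO, and 0 to 1 for the interaction. In Rb KO against WT, 3 genes were called after quantile normalization, 11 with array weights (estimated gene by gene, since the default estimate did not converge) and 10 without DKO 3 and Rb KO 1. In DKO against E2f8 KO, 21 were called with array weights, 16 with only the groups compared in the model, 17 without DKO 3 and Rb KO 1 and 4 without E2f8 KO 3 and DKO 3. In E2f8 KO against Rb KO, 18 were called with array weights, 16 without DKO 3 and Rb KO 1, 5 without E2f8 KO 3 and DKO 3, 5 with no filter, 5 with array medians made equal, 1 at an adjusted p under 0.01 and 2 when a 2-fold change was also required. For the interaction, 1 gene was called with array weights and 2 without DKO 3 and Rb KO 1. The alternatives that leave out 2 arrays were chosen after seeing the data, and the causes of these shifts were not tested.

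Over all genes tested (12980 unless another number is given), calls in DKO against WT numbered 4952, with 3255 at an adjusted p under 0.01 and 2347 when 2-fold was also required. With 1 array left out they numbered 3649 to 5621. In DKO against Rb KO they were 4819, 3082 and 2168, with 3423 to 5789 with 1 array left out. In E2f8 KO against WT they were 3388, 1410 and 1481, with 5947 under array weights, 2095 without E2f8 KO 3 and DKO 3 and 1531 to 4384 with 1 array left out. In E2f8 KO against Rb KO they were 3601, 1652 and 1527, with 6979, 2339 and 1903 to 5023. There were also 5085 without DKO 3 and Rb KO 1, 3502 of 19938 genes with no filter and 3323 with array medians made equal. In DKO against E2f8 KO they were 308, 81 and 152, with 2368, 53 and 79 to 712, with 1262 when only the groups compared were modelled and 527 without DKO 3 and Rb KO 1. Rb KO against WT had 1 call, 14 of 12975 genes after quantile normalization, 149 with array weights, 0 with only the groups compared, 226 without DKO 3 and Rb KO 1 and 1 to 140 with 1 array left out. The interaction had 10, with 6 of the 8518 genes left when the lowest 60% of probe sets were removed, 87 with array weights, 279 without DKO 3 and Rb KO 1, 4 at an adjusted p under 0.01 and 2 to 49 with 1 array left out.

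Replicate numbers are shared between the labels. The replicate number was also used as a block, with calls among all 12980 genes in brackets. Of the 35 genes, 29 were called in DKO against WT (4938), 24 in E2f8 KO against WT (3493) and 0 in Rb KO against WT (1). There were 22 in DKO against Rb KO (4750) and 5 in DKO against E2f8 KO (248). E2f8 KO against Rb KO had 7 (3658) and the interaction 0 (13). Deviations from the group means correlated between -0.38 and 0.57 over 18 pairs of same-numbered arrays, above 0.1 in 7, so the numbers were not taken to pair the samples. Signal over background is not known for these values, and low signals such as those of Pros1 and Cd163 have unknown precision beyond the spread of 3 arrays.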
